A study of Mus musculus with 2 samples.

Results

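The 33 genes described here make, take in, store and export cholesterol. They were chosen by name: a row of the deposited count table counted as a member when its Ensembl mouse identifier carries the symbol of a listed sterol gene. The list was drawn up with earlier results of these data known, so shares set beside those of all genes are descriptive only. All 33 were found among the 45318 genes of the table, and 32 of them had a mean of 1 CPM or more (CPM are counts scaled to library size, comparable between libraries) over both libraries. The same held for 11504 genes in all, called the tested genes here, and Abca1 was the member below that level. The RNA came from leukaemia blasts of the bone marrow of C57Bl/6 mice, sorted for GFP. Titles mark both libraries as MLL/AF9, an oncogene formed by gene fusion in acute leukaemia, so the vehicle cells are labelled with it too. One library came from mice given brequinar, an inhibitor of dihydroorotate dehydrogenase in de novo pyrimidine synthesis, and the other from mice given vehicle. Neither dose, time, age nor the count of mice per library is given in the sources used here, and pooling of animals is not stated. With 1 library per treatment, no difference below has a replicate check or a p-value.

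Cells hold their cholesterol steady through a pair of opposed transcription programmes. SREBP2, encoded by Srebf2, waits in the endoplasmic reticulum with its escort Scap, is kept there by the Insig proteins while sterols are plentiful, and otherwise moves to the Golgi, is cut free and switches on genes of synthesis and uptake. The LXR receptors respond to oxysterols and other sterol intermediates and switch on export. Here 26 members were placed on the SREBP2 side (synthesis, its control and sterol movement). A further 6 were placed on the LXR side (the receptors, the exporters, Mylip and Apoe), and Soat1 was kept apart.

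The brequinar library held 47950714 gene counts and the vehicle library 47935476, so a single count was worth 0.0215 CPM in the brequinar library and 0.0202 CPM in the vehicle library. A gene was called higher or lower at a 2-fold difference or more, on a log2 ratio computed with a prior count of 2. Folds and their intervals are printed without that prior. Each interval is an exact 95% interval that covers counting error only. The protocol names no molecular tags for reads copied by PCR, so they are not independent molecules and these intervals can be too narrow. The median log2 ratio of the tested genes was 0.00029. Transcripts of the leukaemia were present in both libraries, with Hoxa9 at 231 CPM in the brequinar library and 238 CPM in the vehicle library, while Mecom had 1 count in the brequinar library and 8 in the vehicle library.

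Promoter sequence was searched for short elements that members of either side might share. SREBP factors work with NF-Y, which binds CCAAT boxes, and LXR binds paired half-sites. RefSeq promoter windows (GRCm38.p6, 250 bases before to 50 bases after a start) were at hand for 27 of the 33 members. The windows printed here were picked as a strongly lower early enzyme, an enzyme with a match to the sterol element, both Insig paralogues and a pair from the LXR side. Only bases upstream of annotated exons are printed, each 5′ to 3′ on the gene's own strand. Capitals mark matches, on either strand, to CCAAT, to the sterol element TCACNCCAC or to the LXR-type direct repeat (GGTNA, the spacer NNNNN, then GGTNA again). They lie at chr13:119690101-119690350 (plus, Hmgcs1), chr8:122443423-122443672 (minus, Mvd), chr5:28071162-28071362 (plus, Insig1), chr1:121332590-121332839 (minus, Insig2), chr4:53159896-53160145 (minus, Abca1) and chr13:45389492-45389741 (plus, Mylip).
Hmgcs1: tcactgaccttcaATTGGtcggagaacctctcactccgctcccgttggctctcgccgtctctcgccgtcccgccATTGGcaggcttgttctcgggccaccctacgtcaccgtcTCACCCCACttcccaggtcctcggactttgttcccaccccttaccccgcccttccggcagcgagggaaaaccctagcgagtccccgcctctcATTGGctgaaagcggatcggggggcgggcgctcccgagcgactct
Mvd: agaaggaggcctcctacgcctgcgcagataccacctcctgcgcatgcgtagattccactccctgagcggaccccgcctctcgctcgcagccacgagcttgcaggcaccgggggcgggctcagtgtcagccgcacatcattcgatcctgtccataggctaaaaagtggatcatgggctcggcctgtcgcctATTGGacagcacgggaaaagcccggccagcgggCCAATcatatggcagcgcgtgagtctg
Insig1: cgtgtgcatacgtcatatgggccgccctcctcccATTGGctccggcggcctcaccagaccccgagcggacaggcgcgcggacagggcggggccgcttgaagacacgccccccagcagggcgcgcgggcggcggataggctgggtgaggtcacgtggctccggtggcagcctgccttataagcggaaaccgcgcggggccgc
Insig2: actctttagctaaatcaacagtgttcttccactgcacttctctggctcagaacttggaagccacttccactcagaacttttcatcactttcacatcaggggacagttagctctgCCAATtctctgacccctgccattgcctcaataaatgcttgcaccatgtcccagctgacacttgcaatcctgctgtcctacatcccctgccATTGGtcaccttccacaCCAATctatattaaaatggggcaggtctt
Abca1: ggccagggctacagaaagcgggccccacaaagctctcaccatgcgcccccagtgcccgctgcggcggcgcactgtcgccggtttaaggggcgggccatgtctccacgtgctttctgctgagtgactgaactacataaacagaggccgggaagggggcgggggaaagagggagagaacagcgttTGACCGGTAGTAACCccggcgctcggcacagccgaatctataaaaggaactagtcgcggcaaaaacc
Mylip: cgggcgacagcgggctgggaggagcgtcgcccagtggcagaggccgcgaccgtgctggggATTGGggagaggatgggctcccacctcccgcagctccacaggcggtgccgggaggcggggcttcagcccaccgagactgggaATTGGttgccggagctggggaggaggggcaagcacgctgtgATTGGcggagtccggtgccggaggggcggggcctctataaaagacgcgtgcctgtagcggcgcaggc

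A CCAAT match was found for 19 of 21 genes of the SREBP2 side (90.5%), against 43.9% of the 8690 tested genes with a window and 41.1% of all 27025 genes in the promoter table. It was found for 1 of 5 genes of the LXR side, Mylip. Within the SREBP2 side, 6 of 7 genes with a window that were called lower by the rule given above held it. Of genes with a window and within 2-fold, 13 of 14 held it. Abcg1, Fdft1, Fdps, Npc1, Sqle and Stard4 had no window, and of these Fdps and Sqle were called lower. The sterol element was found once among the members, 137 bases before the Hmgcs1 start, against 1.37% of those tested genes. The LXR-type repeat was found once, 67 bases before the Abca1 start, against 0.552% of them. No matches of different motifs overlapped. These are matches of letters in 1 window per start, not measured binding.

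The mevalonate pathway turns acetyl-CoA into the isoprenoid building blocks of sterols. Of its 8 genes, 4 were called lower in the brequinar library and none higher, where 4.4% of all genes tested were called lower and 6.45% higher. Their median log2 ratio was -1.05. In bulk RNA, fewer cells of a type and less RNA per cell cannot be told apart, here and in all that follows. Acat2, the cytosolic thiolase of the first condensation, stood at 18.5 CPM in the brequinar library and 40.7 CPM in the vehicle library, 2.204-fold lower (interval 2.03 to 2.39). Hmgcs1, which makes the compound that is then reduced to mevalonate, stood at 35.6 CPM in the brequinar library and 69.6 CPM in the vehicle library and was just short of the call at 1.95-fold lower (interval 1.84 to 2.07). It passed 2-fold when libraries were scaled by total counts.

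Of the kinases and the decarboxylase that follow, Mvk and Mvd were called lower and Pmvk was not. Mvk, mevalonate kinase, stood at 10.4 CPM in the brequinar library and 25.7 CPM in the vehicle library (2.47-fold lower, interval 2.22 to 2.74). Pmvk, the next kinase, stood at 17.8 CPM in the brequinar library and 30.9 CPM in the vehicle library, within 2-fold. Mvd, which forms isopentenyl diphosphate, stood at 12.3 CPM in the brequinar library and 28.1 CPM in the vehicle library (2.28-fold lower, interval 2.07 to 2.52). Within this run of steps, the kinase in the middle moved least.

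Past isopentenyl diphosphate, Fdps was called lower, and Idi1 and Ggps1 were not. Idi1, the isomerase, stood at 25.1 CPM in the brequinar library and 43.6 CPM in the vehicle library. Fdps, farnesyl diphosphate synthase, was called lower at a low level, with 80 counts in the brequinar library and 240 in the vehicle library (2.82-fold, interval 2.18 to 3.67). Ggps1, which leads to the geranylgeranyl groups of prenylated proteins, stood at 15.6 CPM in the brequinar library and 18.3 CPM in the vehicle library. At 1.17-fold lower (interval 1.06 to 1.29) it had the smallest difference of the 8.

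**Figure D1:**
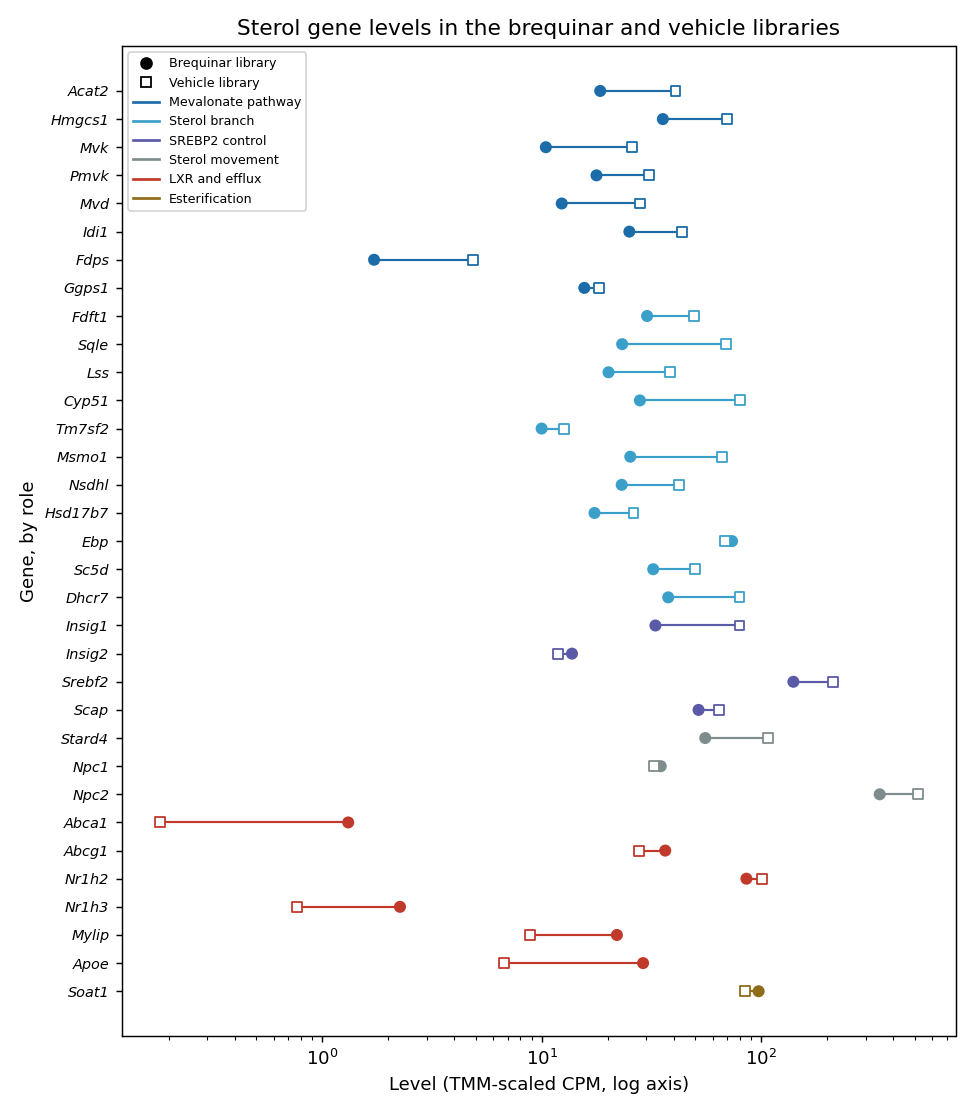
Level of each sterol gene in TMM-scaled CPM (log axis) in the brequinar library (filled circles) and the vehicle library (open squares), grouped and coloured by role. Circles lie left of squares for 23 of 26 genes of the SREBP2 side, and the widest gap to the right is that of Abca1, at the lowest level.

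In the sterol branch, which starts where farnesyl diphosphate is committed to squalene, 4 of 11 genes were called lower and none higher. Over all genes tested, 4.4% were called lower and 6.45% higher. The median log2 ratio of the branch was -0.87. Fdft1, squalene synthase, stood at 30.2 CPM in the brequinar library and 49.2 CPM in the vehicle library. Sqle (GRCm38 chr15:59315077-59331192, plus strand), squalene epoxidase and an oxygen-dependent control point of the pathway, stood at 23.2 CPM in the brequinar library and 69.4 CPM in the vehicle library. At 2.98-fold lower (interval 2.79 to 3.20) it had the lowest log2 ratio of the 32 members tested, -1.58, and ranked 168th from the lowest of 11504 genes. Lss, which closes the ring to lanosterol, stood at 20.1 CPM in the brequinar library and 38.3 CPM in the vehicle library, 1.90-fold lower.

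Cyp51, lanosterol demethylase, stood at 28.0 CPM in the brequinar library and 79.8 CPM in the vehicle library (2.85-fold lower, interval 2.68 to 3.04). Tm7sf2, a sterol reductase that acts between Cyp51 and Msmo1, stood at 9.99 CPM in the brequinar library and 12.6 CPM in the vehicle library. It was 1.26-fold lower and so within 2-fold. Msmo1, the methylsterol oxidase that follows, stood at 25.3 CPM in the brequinar library and 66.1 CPM in the vehicle library (2.61-fold lower, interval 2.44 to 2.79). Its partners in that demethylation moved less: Nsdhl, a sterol dehydrogenase, stood at 23.1 CPM in the brequinar library and 42.4 CPM in the vehicle library. Hsd17b7, a ketosterol reductase, stood at 17.4 CPM in the brequinar library and 26.2 CPM in the vehicle library. Both were within 2-fold.

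The closing steps ranged from no decrease to a call. Ebp, the sterol isomerase, was the single enzyme of the 19 with a log2 ratio above 0, at 73.6 CPM in the brequinar library and 68.2 CPM in the vehicle library (1.08-fold higher, interval 1.03 to 1.13). Sc5d, a sterol desaturase, stood at 32.2 CPM in the brequinar library and 49.9 CPM in the vehicle library. Dhcr7, the reductase that yields cholesterol, stood at 37.7 CPM in the brequinar library and 79.7 CPM in the vehicle library (2.11-fold lower, interval 1.997 to 2.24). Its interval reached just inside 2-fold, unlike those of the other 7 enzymes called lower. Summed over the 19 enzymes the level was 458 CPM in the brequinar library and 844 CPM in the vehicle library, 1.84-fold lower.

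Among the 4 genes that control SREBP2, the Insig paralogues differed. Insig1, a retention protein that is itself a classic SREBP target, stood at 32.96 CPM in the brequinar library and 79.7 CPM in the vehicle library (2.42-fold lower, interval 2.28 to 2.57). Insig2, a retention protein expressed largely independently of SREBP, stood at 13.7 CPM in the brequinar library and 11.8 CPM in the vehicle library (1.16-fold higher, interval 1.04 to 1.30). The printed upstream sequences of both hold CCAAT matches, 1 for Insig1 and 3 for Insig2. The fold of Insig1 was 0.357 times that of Insig2 (interval 0.314 to 0.405, counting error only). Per kilobase of exon, Insig1 was 2.69 times as abundant as Insig2 in the brequinar library and 7.55 times in the vehicle library. Srebf2 itself stood at 140.1 CPM in the brequinar library and 212 CPM in the vehicle library, 1.52-fold lower and within the limit, and Scap at 51.8 CPM in the brequinar library and 64.5 CPM in the vehicle library.

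None of the 3 genes of sterol movement was called. Stard4, a soluble carrier that shuttles sterol between membranes and is an SREBP target, stood at 55.6 CPM in the brequinar library and 107 CPM in the vehicle library. At 1.92-fold lower (interval 1.84 to 2.02) it was just short of the call, which it passed with scaling by total counts. The lysosomal exit of cholesterol taken up with lipoproteins needs Npc1, in the membrane, and Npc2, in the lumen. Npc1 stood at 34.9 CPM in the brequinar library and 32.4 CPM in the vehicle library. Npc2, the most abundant member per kilobase in both libraries, stood at 347 CPM in the brequinar library and 516 CPM in the vehicle library, 1.49-fold lower (interval 1.46 to 1.52). The fold of Npc2 was 0.625 times that of Npc1 (interval 0.582 to 0.672, counting error only). Npc1 shares 511 exon bases with Rmc1 on the opposite strand, and the strand setting of the counting is not given. Rmc1 stood at 28.5 CPM in the brequinar library and 23.3 CPM in the vehicle library, so the Npc1 ratio is uncertain.

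On the LXR side, 3 of the 5 genes tested were called higher and none lower, against 6.45% higher and 4.4% lower over all genes tested. Their median log2 ratio was 1.31. Nr1h3, 1 of the 3, reached the mean of 1 CPM only through the brequinar library, where it is high, so that its direction was fixed by the filter. Without it, 2 of 4 genes were called higher and the median was 0.85. The receptors differed in level and in ratio. Nr1h3 (LXR alpha, the form typical of macrophages and liver) had 105 counts (2.26 CPM) in the brequinar library and 38 counts (0.768 CPM) in the vehicle library, 2.94-fold higher (interval 2.01 to 4.39). Nr1h2 (LXR beta, broadly expressed) stood at 85.6 CPM in the brequinar library and 100.8 CPM in the vehicle library, within 2-fold. Per kilobase, Nr1h3 was 0.0352 times as abundant as Nr1h2 in the brequinar library and 0.0102 times in the vehicle library, so nearly all LXR transcript was Nr1h2 in both.

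Of the other 4 genes of this side, Mylip and Apoe were called higher. Neither sterol exporter was called: Abcg1 was within 2-fold and Abca1 was not tested. Abca1, which loads cholesterol onto lipid-poor apolipoprotein, had 61 counts (1.31 CPM) in the brequinar library and 9 counts (0.182 CPM) in the vehicle library. That is 7.22-fold higher, with a wide interval of 3.56 to 16.5. Its upstream sequence printed above is the one with the LXR-type repeat. With a mean under 1 CPM it is not in the counts of called genes. Abcg1, which exports sterol to mature lipoprotein, stood at 36.5 CPM in the brequinar library and 27.7 CPM in the vehicle library (1.32-fold higher, interval 1.23 to 1.42). Mylip, a ubiquitin ligase that sends lipoprotein receptors to degradation, stood at 22.001 CPM in the brequinar library and 8.87 CPM in the vehicle library (2.48-fold higher, interval 2.22 to 2.78).

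Apoe (GRCm38 chr7:19696109-19699188, minus strand), the apolipoprotein that macrophages secrete as a cholesterol acceptor, stood at 29.0 CPM in the brequinar library and 6.73 CPM in the vehicle library (4.30-fold higher, interval 3.81 to 4.87). Its log2 ratio of 2.10 was the highest of the 32 members tested and ranked 236th from the highest of 11504 genes. The summed level of the LXR side was 177 CPM in the brequinar library and 145 CPM in the vehicle library, of which Nr1h2 gave 85.6 CPM in the brequinar library and 100.8 CPM in the vehicle library. Without the receptors the sum was 88.8 CPM in the brequinar library and 43.5 CPM in the vehicle library. Soat1, which esterifies surplus cholesterol for storage and was placed on neither side, stood at 97.3 CPM in the brequinar library and 84.5 CPM in the vehicle library, 1.15-fold higher (interval 1.10 to 1.201).

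**Figure D2:**
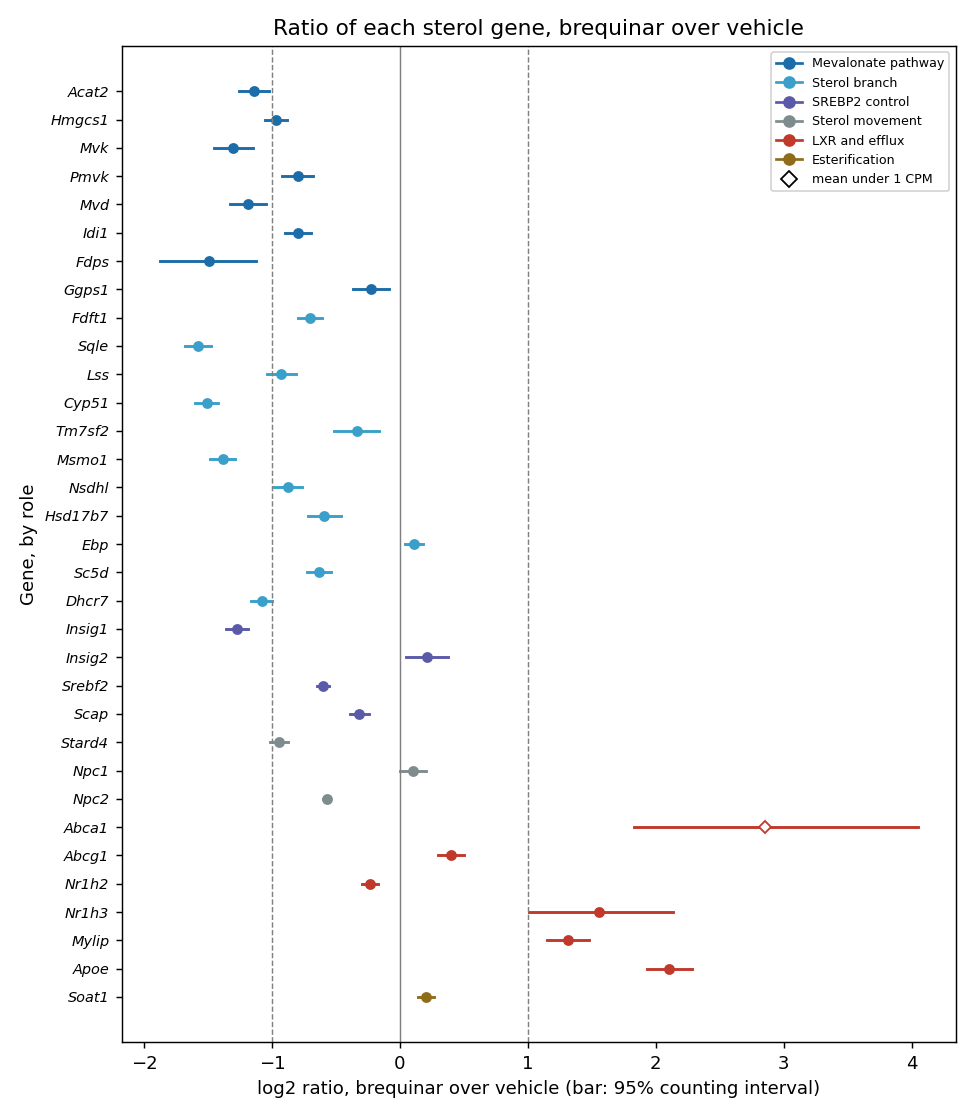
Log2 ratio of brequinar over vehicle for each sterol gene, without the prior count, with bars for the 95% counting interval and dashed lines at 2-fold. Points of synthesis genes lie at or left of 0 except Ebp, and Apoe, Nr1h3, Mylip and, at low counts, Abca1 lie wholly right of the 2-fold line.

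For the sides set side by side, Nr1h3 was left out, since the filter fixed its direction. The LXR side then had 2 genes called higher and none lower of 4, and the SREBP2 side had none higher and 9 lower of 26. Among all tested genes 6.45% were called higher and 4.4% lower. On the LXR side 3 of these 4 genes had a log2 ratio above 0, against 50.1% of the tested genes. On the SREBP2 side 23 genes had one below 0, against 49.9% of the tested genes, and the median was -0.84. The whole counting interval lay beyond 2-fold for 2 of these 4 LXR-side genes and 8 genes of the SREBP2 side, against 5.22% higher and 2.5% lower over all genes tested. The highest SREBP2-side ratio, 0.21 for Insig2, lay below those of Abcg1, Mylip and Apoe, and Nr1h2 at -0.24 lay among the SREBP2-side genes. The sides therefore overlapped through Nr1h2 alone.

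**Figure D3:**
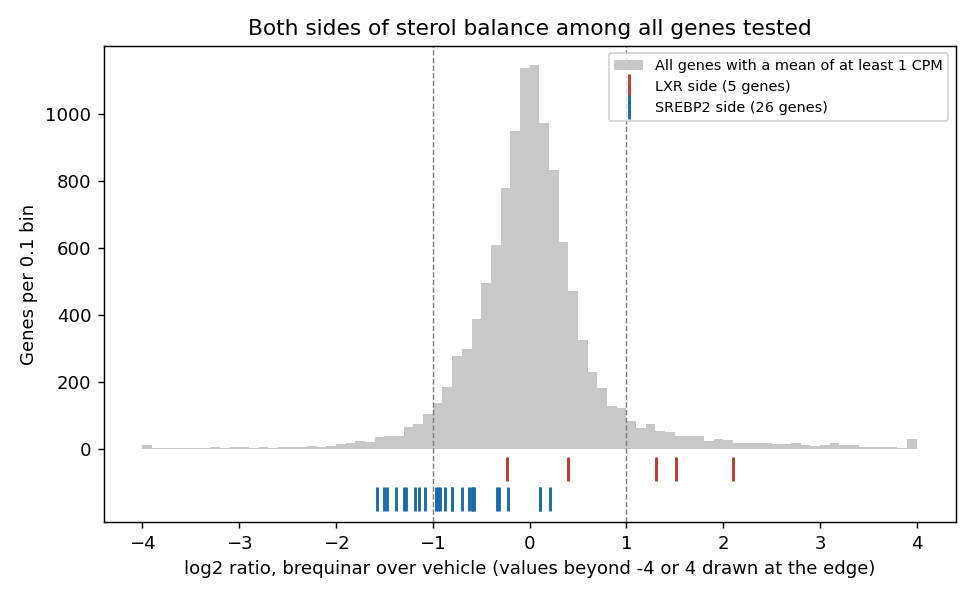
Log2 ratios of brequinar over vehicle for all 11504 tested genes (grey, genes per bin), with a tick for each tested gene of the LXR side (red) and the SREBP2 side (blue) below. SREBP2-side ticks run between -1.58 and 0.21, and LXR-side ticks between -0.24 and 2.10.

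Other genes of sterol and isoprenoid metabolism, listed by role, held no call in either direction among those tested. Over all genes tested 6.45% were called higher and 4.4% lower, so a list this short with no call is near that share. None of 14 genes that use isoprenoids for prenylation, dolichol or ubiquinone was called (median log2 ratio 0.07). Fntb, a farnesyltransferase subunit, had the largest absolute log2 ratio, a lower level at 10.7 CPM in the brequinar library and 16.5 CPM in the vehicle library, followed by Zmpste24, a prenyl protein protease, at 152 CPM in the brequinar library and 110.4 CPM in the vehicle library. Pdss2, of ubiquinone side chain synthesis, stood at 5.88 CPM in the brequinar library and 7.74 CPM in the vehicle library. Each of these differences was well under 2-fold.

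None of 11 genes of SREBP processing and sterol-sensed degradation was called (median 0.05). Mbtps1, the protease of the first cut of SREBP, stood at 73.3 CPM in the brequinar library and 102 CPM in the vehicle library, and Erlin2 at 52.8 CPM in the brequinar library and 72.1 CPM in the vehicle library.

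Of 14 lipoprotein receptor and sterol transport genes, 12 were tested and none was called (median -0.07). Tmem97, a sterol-regulated partner of Npc1, was nearest to the limit at 44.2 CPM in the brequinar library and 86.0 CPM in the vehicle library (1.95-fold lower). Scarb1, a lipoprotein receptor, stood at 63.5 CPM in the brequinar library and 104 CPM in the vehicle library, and Gramd1b, a sterol carrier, at 44.5 CPM in the brequinar library and 31.99 CPM in the vehicle library.

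Of 10 LXR partners and further LXR targets, 8 were tested and none was called (median 0.01). Pltp, a phospholipid transfer protein and LXR target, was not tested, like Abca1, for its low mean. It had 54 counts in the brequinar library and 13 in the vehicle library, 4.42-fold higher (interval 2.38 to 8.84), and is named because of that value, after it was seen. Arl4c, a small GTPase, stood at 15.2 CPM in the brequinar library and 7.76 CPM in the vehicle library (1.96-fold higher). Smpdl3a, a phosphodiesterase, stood at 342 CPM in the brequinar library and 225 CPM in the vehicle library. Among 6 oxysterol enzymes only Hsd3b7, a hydroxysteroid dehydrogenase of bile acid synthesis, was tested, and it stood at 18.2 CPM in the brequinar library and 32.6 CPM in the vehicle library. Ch25h and Cyp7b1 had 0 counts in both libraries, which allows up to 0.0646 CPM in the brequinar library and 0.0606 CPM in the vehicle library (3 counts).

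**Figure D4:**
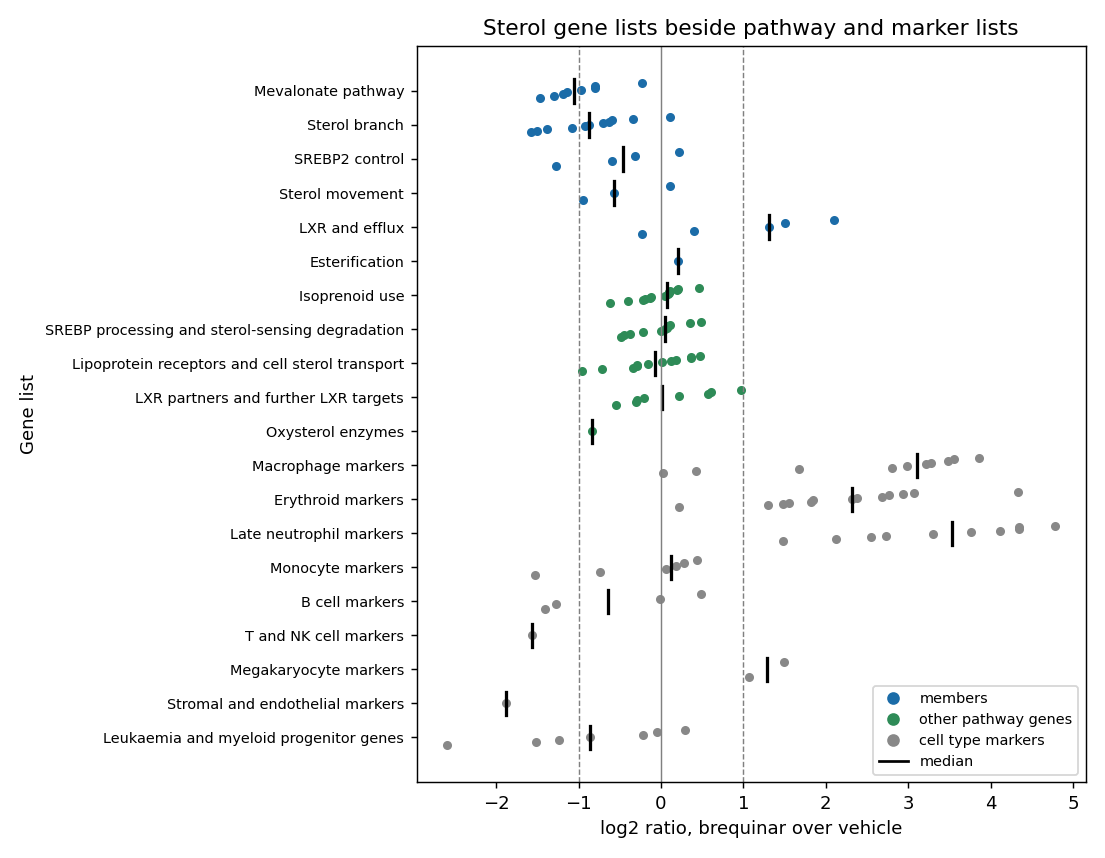
Log2 ratios of brequinar over vehicle by list for the tested genes: sterol members (blue), other pathway genes (green) and cell type markers (grey), with the median as a black bar and dashed lines at 2-fold. Medians of the mevalonate pathway and sterol branch are -1.05 and -0.87, those of the other pathway lists with several genes lie near 0, and late neutrophil and macrophage markers lie at 3.54 and 3.10.

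Markers of other cells and of maturation moved between the same libraries, and their part in the sterol results was not tested. Of 13 macrophage markers, 10 were tested and 8 were called higher, against 6.45% of all genes tested, with none at 0 in either library. Of these 8, 5 were under 1 CPM in the vehicle library and were tested only through their level in the brequinar library, which fixed their direction. The summed level was 923 CPM in the brequinar library and 640 CPM in the vehicle library, most of it from Vcam1, Adgre1 and Slc40a1. Vcam1 (1.34-fold higher) and Adgre1 (1.02-fold higher) were within 2-fold, and Slc40a1 was called higher (3.20-fold). The other 10 markers, set apart after their values were seen, summed to 67.3 CPM in the brequinar library and 6.97 CPM in the vehicle library. The values of all 13 markers stand beside those of Apoe, Nr1h3 and Abca1, which macrophages are known to express.

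All 10 late neutrophil markers were called higher, where 6.45% of all genes tested were called higher and 4.4% lower. The sum of these markers was 23730.4 CPM in the brequinar library and 1431 CPM in the vehicle library. Of 7 leukaemia and progenitor genes tested 3 were called lower, and the sum of the 8 listed was 3212 CPM in the brequinar library and 9742 CPM in the vehicle library. Without Mpo and Elane, granule protein genes set apart after their values were seen, the sum was 531 CPM in the brequinar library and 732 CPM in the vehicle library. Of 13 erythroid markers tested 12 were called higher, 6 of them tested only through the brequinar library, with a sum of 469 CPM in the brequinar library and 242 CPM in the vehicle library. Of 6 monocyte markers 1 was called lower and none higher, with sums of 1035 CPM in the brequinar library and 1037 CPM in the vehicle library. Of the 4 B cell markers tested 2 were called lower (39.7 CPM in the brequinar library and 88.3 CPM in the vehicle library over all 6). The single T and NK cell marker tested, Nkg7, was called lower (346 counts in the brequinar library and 1091 in the vehicle library). Nkg7 gave most of the sum over all 6 (9.67 CPM in the brequinar library and 22.6 CPM in the vehicle library). Of the untested ones, at low counts, Cd4, Ncr1 and Cd3g had positive log2 ratios, and Cd3e and Cd8a negative ones. The single stromal and endothelial marker tested, Pecam1, was called lower (314 counts in the brequinar library and 1242 in the vehicle library). Pecam1 gave most of the sum over all 7 (9.73 CPM in the brequinar library and 27.3 CPM in the vehicle library). Of the untested ones, Lepr, Col1a1 and Col1a2 had positive ratios, and Cxcl12, Kdr and Cdh5 negative ones. Whether either cell type fell was not tested. Both megakaryocyte markers tested were called higher, 1 of them tested only through the brequinar library (9.15 CPM in the brequinar library and 2.79 CPM in the vehicle library over all 5).

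Compared per kilobase of exon, several members held a different place in each library. Npc2 led in both libraries, at 63.7 CPM per kilobase in the brequinar library and 94.9 in the vehicle library, and Abca1 was last in both. Ebp stood 2nd at 31.9 CPM per kilobase in the brequinar library and 4th at 29.5 in the vehicle library. Apoe stood 5th of 33 at 13.5 CPM per kilobase in the brequinar library and 27th at 3.15 in the vehicle library. Cyp51 stood 20th at 6.34 CPM per kilobase in the brequinar library and 7th at 18.1 in the vehicle library. Exon lengths pool all annotated isoforms, so the level of a gene with a long alternative exon is understated.

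Sequence shared with other genes makes some member counts uncertain. In GENCODE, 11 members share exon bases with another annotated gene and 4 have a near-identical annotated copy (at least 95% identity over 500 bases), 12 members in all. Fdps shares 1124 exon bases with Gm43738 on the same strand, listed at 0 in both libraries, and the low Fdps level carries that uncertainty. Acat2 has a copy in Acat3 (97.7% identical over 1477 bases), with 0 counts in the brequinar library and 1 in the vehicle library. Fdft1 overlaps Ctsb, an abundant protease gene on the opposite strand, by 774 bases, and the strand setting of the counting is not given in the sources used here. Without the 12, the SREBP2 side had 6 genes called lower of 15, with a median log2 ratio of -0.87, and the LXR side, now without Nr1h3, had 2 called higher of 4, with a median of 0.85.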

How the data were processed

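The authors deposited whole-number read counts per gene, not normalised, for 2 libraries. Per the labels' protocols, these were poly(A)-selected, strand-preserving libraries read as paired ends of 101 bases. Per the submitters' processing notes, STAR 2.4.2a, Picard 1.99 and 2.2.4 and build mm10 were used. Neither counting program, strand setting nor annotation is given in those sources, so opposite-strand overlaps cannot be told apart. The 4 closing lines that name no gene held 20.2% of reads in the brequinar library and 21.6% in the vehicle library and stayed out of library sizes.

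Symbols, positions and exon lengths came from GENCODE mouse release M21 (GRCm38, the assembly of mm10), by identifier without version. TMM scaling (factors 0.969 for brequinar and 1.03 for vehicle) used edgeR 4.0.16 in R 4.3.3. Ratios and intervals were computed with numpy 2.4.6 and scipy 1.17.1, and near-identical copies were sought with BLAST 2.17.0. The procedure was tested on simulated counts. Every member is named. Of each other pathway list, up to 3 genes with the largest absolute log2 ratio among the tested genes are named, except some that are not reported here. Members and lists were chosen with earlier results of these data known. The alternatives tried were scaling by total counts, size factors (DESeq2 1.42.0), upper quartile or totals without the top genes, filters, prior counts, thresholds and thinning, and, chosen after seeing the data, a length and GC correction (lowess, statsmodels 0.14.6) and the removal of members with shared sequence.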

Additional observations from a re-analysis of the deposited data

How the results depend on the processing

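With 1 library per treatment, spread between animals is unknown and no replicate could be left out. No paired analysis was possible because each treatment has a single library. Of 32 members tested, none changed sign and 29 kept their call under up to 10 alternatives each (scalings, filters, prior counts, thinning, length and GC correction). Hmgcs1, Stard4 and Lss became called lower with scaling by total counts or by totals without the 50 most abundant genes, and Hmgcs1 and Stard4 also with the length and GC correction, so the SREBP2 side had 12, 12 and 11 genes called lower in place of 9. Total counts shifted the median of all genes by -0.09. With a limit of 1.5-fold, 19 genes of the SREBP2 side, 1456 higher and 1463 lower of all genes were called. With no filter on low counts, 2470 genes were higher and 2074 lower, against 742 and 506. With a minimum mean of 5 CPM, 457 genes were higher and 230.0 lower, and Nr1h3 and Fdps no longer entered. The LXR-side median was then 0.85, and the difference between the LXR and SREBP2 medians was 1.65, against 2.14. The value of 2.14 includes Nr1h3, whose direction the filter fixed, and so does not measure the contrast of the sides. Without Nr1h3 alone the LXR-side median was also 0.85. With the whole counting interval beyond 2-fold, 288 genes were lower. Without members that share sequence, the LXR-side median was 0.85 and the difference 1.72. Low counts limit Abca1, Nr1h3 and Fdps, whose intervals are the widest.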
